A study of Mus musculus with 12 samples.

Results

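Chemokine ligands are small secreted or membrane-tethered proteins that direct the movement of cells bearing the matching G protein-coupled receptors. The 10 ligand genes described here are Ccl2, Ccl5, Ccl7, Ccl20, Cxcl1, Cxcl10, Cxcl12, Cxcl14, Cxcl16 and Cx3cl1, out of 55401 genes in the deposited tables. They were chosen by gene name from a list drawn up with results of these tables known, so the fold changes and p-values given for them describe the data and are not independent evidence that chemokines respond. All 10 are in both tables. Ccl20 was listed at 0 in every sample, and 9 were above 0 in at least 1 sample.

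RNA-seq was carried out on adult neural stem/progenitor cells (aNSPCs), which were isolated from the forebrain of C57BL/6 mice aged 8 to 10 weeks and expanded in culture with EGF and FGF-2. The 12 samples formed 4 groups of 3: proliferating cells without NAD+ (Ctrl), proliferating cells with 1 mM NAD+, and cells under differentiation conditions, which contained 1 µM retinoic acid and 5 µM forskolin, without or with 1 mM NAD+. The Ctrl group of the differentiation conditions therefore also received retinoic acid and forskolin, and the groups follow the sample titles, since a treatment field of the labels lists every sample as untreated. The study describes 3 biological samples per group, does not say whether they came from separate mice, and its sources used here do not give the time of RNA collection.

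The ligands differ in how cells make and hold them. CCL2, CCL7, CXCL1, CXCL10, CCL5 and CCL20 are inflammatory chemokines, whose genes are induced by cytokines through NF-κB and interferon signaling, and astrocytes are a known source of CCL2 and CXCL10 in the brain. CXCL12 and CXCL14 are made constitutively in many tissues. CX3CL1 and CXCL16 are the only members of the superfamily with a transmembrane stalk, from which ADAM proteases release them, and CX3CL1 in the brain is best known from neurons, which signal through it to microglia.

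The values are FPKM (read fragments divided by transcript length in kilobases and by the size of the library), so levels can be set side by side between genes, and they are rounded to 0.01. Whole reads could not be recovered from these values, so that depth is unknown and no counting error is given. FPKM values of all genes summed to between 308828 and 363330 per sample, and proliferating Ctrl 1, at the top of this range, stood above the next sample at 349649. The stem cell genes Nes and Sox2 were present in all 12 samples (Nes at 9.0 to 96.96 FPKM, Sox2 at 128.61 to 251.88 FPKM). The summed level of 6 astrocyte markers was 302.9 to 445.11 FPKM in proliferating Ctrl and 231.69 to 354.55 FPKM in proliferating NAD+ samples. These ranges overlapped, with medians of 308.73 and 233.11 FPKM. The sum was between 994.82 and 1083.72 FPKM in differentiating Ctrl and between 1305.59 and 1443.78 FPKM in differentiating NAD+ samples. Proliferating Ctrl 1 and differentiating Ctrl 2 shared low values of genes that were at 0 elsewhere: 111 genes were above 0 in this pair of libraries alone, compared with 12 to 63 genes for each of the other 65 pairs, and these genes include the leukocyte genes Itgam, Ccl3, Ccr1 and Cxcr2. Other microglia and macrophage markers were divided. Csf1r and Cx3cr1 were highest in this pair and Ptprc only in proliferating Ctrl 1, whereas Aif1, P2ry12, Tmem119 and Cd68 were highest in other samples. Of the ligands described here, Ccl5 had its 2 highest values in this pair. In bulk RNA, fewer cells of a type and less RNA per cell cannot be told apart.

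Cxcl10 showed the highest level of the 10 and the smallest adjusted p-value. CXCL10 attracts activated T cells and other cells with the receptor CXCR3, and its gene is a classical interferon target. The gene (ENSMUSG00000034855) lies on chromosome 5 from 92346638 to 92348889 of mm10, on the minus strand. In proliferating Ctrl samples 1, 2 and 3 its level was 0.28, 0.19 and 0.14 FPKM, and in proliferating NAD+ samples it was 0.19, 0.27 and 0.26 FPKM. The groups overlapped and all 6 values were close to the bottom of the scale. Under differentiation conditions it was 12.61, 10.84 and 12.21 FPKM in Ctrl and 43.10, 40.26 and 41.66 FPKM with NAD+. Every NAD+ sample was above every Ctrl sample, and the group means of 11.9 ± 0.93 and 41.7 ± 1.42 FPKM (SD, n = 3) differed by a ratio of 3.51. On the log2(FPKM + 0.1) scale, which understates the change of low genes, the difference was 1.80 (standard error 0.07, limma adjusted p = 0.000572). The exact two-sided permutation test gave p = 0.10, below which a comparison of 3 samples with 3 cannot go.

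The region upstream of Cxcl10 is shown because this gene had the smallest adjusted p-value of the 10 and the largest difference in FPKM; on the log2 scale Ccl2 and Ccl7, below, differed by more. It is the 250 bases before the RefSeq transcription start (GRCm38.p6, chr5:92348890-92349139, minus strand), and the capitals mark matches to motifs of factors that induce inflammatory chemokine genes.
Cxcl10: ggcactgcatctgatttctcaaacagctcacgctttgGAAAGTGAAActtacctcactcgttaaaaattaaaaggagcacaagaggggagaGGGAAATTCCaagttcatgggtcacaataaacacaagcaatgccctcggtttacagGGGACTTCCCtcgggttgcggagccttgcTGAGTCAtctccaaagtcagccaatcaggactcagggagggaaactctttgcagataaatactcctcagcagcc
The capitals are, from the left, a match to the core of the interferon-stimulated response element (ISRE, GAAA repeated after 2 bases of any kind) starting at position -213 from the start site, matches to the kappaB motif of NF-κB at -159 and -103, and a match to the AP-1 motif TGANTCA at -74. Searched on both strands, these motifs were found in 2.98% (ISRE core), 3.9% (kappaB) and 6.75% (TGANTCA) of 32851 RefSeq promoter windows of this length. A match is a run of letters, and binding was not measured.

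Part of Cxcl10 overlaps Art3 on the opposite strand, an ADP-ribosyltransferase family gene, with 133 bases that are exonic in both. Whether reads were counted by strand is not stated. Art3 was at 0.46, 0.33 and 0.33 FPKM in differentiating Ctrl and at 1.5, 1.3 and 1.27 FPKM in differentiating NAD+ samples. Its values moved in the same direction as those of Cxcl10 at a far lower level, and its part in the Cxcl10 difference was not tested.

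Cxcl1 was present under differentiation conditions. CXCL1 attracts neutrophils through CXCR2. The gene (ENSMUSG00000029380) lies on chromosome 5 from 90891241 to 90893115. Its level was 0.03, 0 and 0 FPKM in proliferating Ctrl and 0, 0.04 and 0 FPKM in proliferating NAD+ samples. Under differentiation conditions it was 0.61, 0.85 and 0.70 FPKM in Ctrl and 0.96, 0.96 and 1.18 FPKM with NAD+. The NAD+ samples were all above the Ctrl samples, with a ratio of the means of 1.44, but the difference did not pass the test (log2 fold change 0.47, standard error 0.18, 95% interval 0.05 to 0.89, limma adjusted p = 0.169). Its upstream window (chr5:90890995-90891244, plus strand) is shown for comparison with that of Cxcl10, since these CXC genes were both near 0 in proliferating cells and above it in differentiating cells.
Cxcl1: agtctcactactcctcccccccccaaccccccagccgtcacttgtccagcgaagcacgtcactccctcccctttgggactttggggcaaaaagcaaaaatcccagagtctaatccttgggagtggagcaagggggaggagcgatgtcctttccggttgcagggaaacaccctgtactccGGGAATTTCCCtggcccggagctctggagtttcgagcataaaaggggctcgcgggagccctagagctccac
The capitals mark a pair of overlapping kappaB matches that start at -71 and -70. The interferon-response and AP-1 letters were not in this window.

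Ccl2 and Ccl7 lie beside each other on the plus strand of chromosome 11 (Ccl2, ENSMUSG00000035385, 82035571 to 82037453; Ccl7, ENSMUSG00000035373, 82045712 to 82047525), and both proteins attract monocytes through CCR2. Ccl2 was at 0.28, 0.76 and 0.14 FPKM in proliferating Ctrl and at 0.58, 1.27 and 1.38 FPKM in proliferating NAD+ samples. These groups overlapped, and the difference of 1.38 on the log2 scale (standard error 0.53, 95% interval 0.12 to 2.64) had a limma adjusted p of 0.29. Under differentiation conditions Ccl2 was at 0.24, 0.40 and 0.90 FPKM in Ctrl and at 2.42, 1.93 and 2.30 FPKM with NAD+. Here the groups did not overlap, the means were 0.51 ± 0.34 and 2.22 ± 0.26 FPKM (SD, n = 3), and NAD+ was higher by 2.06 on the log2 scale (standard error 0.38, limma adjusted p = 0.0304). This call rested on few samples: the adjusted p was 0.0604 with the replicate number as a block, 0.110 without moderation of the variance, and between 0.070 and 0.098 when any 1 of differentiating Ctrl 1, Ctrl 2, NAD+ 1, NAD+ 2 or NAD+ 3 was left out.

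Ccl7 followed the same order of groups at a lower level. It was at 0, 0.16 and 0.06 FPKM in proliferating Ctrl, at 0, 0.65 and 0.19 FPKM in proliferating NAD+ samples, at 0.29, 0.29 and 0 FPKM in differentiating Ctrl and at 0.66, 0.83 and 0.99 FPKM in differentiating NAD+ samples. Under differentiation conditions the NAD+ samples were again all above the Ctrl samples, with means of 0.83 ± 0.17 and 0.19 ± 0.17 FPKM (SD, n = 3). The difference of 1.89 on the log2 scale (standard error 0.56, 95% interval 0.55 to 3.23) did not pass (limma adjusted p = 0.102), and passed with 1 in place of 0.1 added to the FPKM (log2 fold change 0.62, adjusted p = 0.0405).

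**Figure D1:**
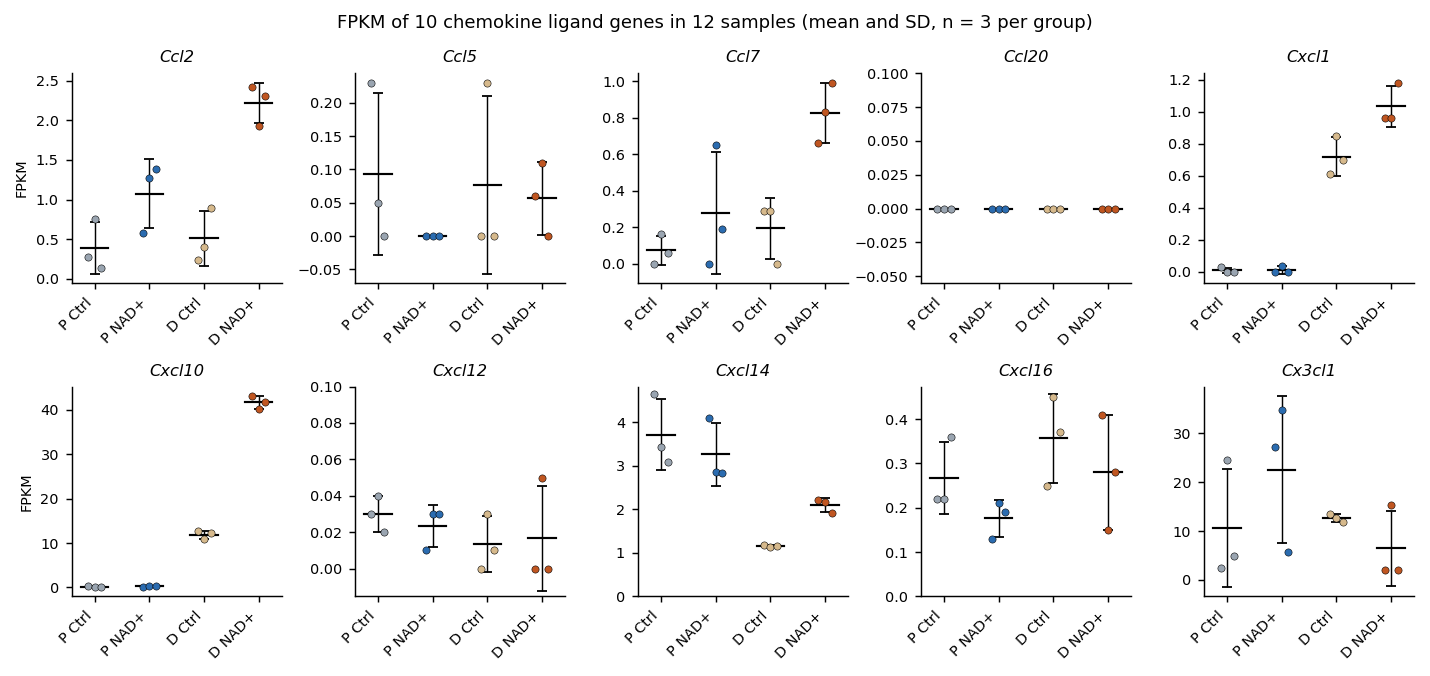
FPKM of the 10 chemokine ligand genes (vertical axes, one scale per gene) in the 4 groups, where P is proliferating and D is differentiation conditions; points are samples, horizontal lines are group means and bars are SD (n = 3). Cxcl10 lies between 40.26 and 43.10 FPKM in the 3 differentiating NAD+ samples, above all 9 others, while Cx3cl1 is spread widely within 3 of its 4 groups.

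Cxcl14 fell on differentiation and was higher with NAD+ in differentiating cells. CXCL14 is a constitutively made chemokine of epithelia and some neurons, for which no single receptor is agreed. The gene (ENSMUSG00000021508) lies on chromosome 13 from 56288643 to 56296551, on the minus strand. Its level was 4.65, 3.43 and 3.08 FPKM in proliferating Ctrl and 4.10, 2.86 and 2.84 FPKM in proliferating NAD+ samples, which overlap. Under differentiation conditions it was 1.18, 1.13 and 1.15 FPKM in Ctrl and 2.22, 2.17 and 1.91 FPKM with NAD+. The 3 NAD+ samples lay above the 3 Ctrl samples and below all proliferating samples, and the means of 1.15 ± 0.025 and 2.10 ± 0.17 FPKM (SD, n = 3) differed by 0.81 on the log2 scale (standard error 0.11, limma adjusted p = 0.0139). Leaving out differentiating Ctrl 1, Ctrl 2 or Ctrl 3 moved the adjusted p to 0.0556, 0.0546 and 0.0548. The 250 bases upstream of its start (chr13:56296552-56296801, minus strand) are shown because Cxcl14 is the other CXC ligand whose NAD+ difference passed the test.
Cxcl14: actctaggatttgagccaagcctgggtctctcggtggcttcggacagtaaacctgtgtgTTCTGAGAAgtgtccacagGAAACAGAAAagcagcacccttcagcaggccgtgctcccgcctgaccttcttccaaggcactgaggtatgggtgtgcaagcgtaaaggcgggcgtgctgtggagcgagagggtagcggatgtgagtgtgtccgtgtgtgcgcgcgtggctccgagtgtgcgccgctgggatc
The capitals mark a match to the STAT motif TTCNNNGAA starting at -191 and a match to the ISRE core starting at -172. The former was found in 7.02% of all promoter windows, and the kappaB and AP-1 letters were not in this window. Of the 10 ligands, 6 have a window in the RefSeq table, and the remaining ones of these are Cxcl12 and Cx3cl1, with none of the 4 motifs, and Ccl20, with 1 kappaB match starting at -80 although the gene was listed at 0.

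Cx3cl1 was among the most abundant of the ligands and varied widely between samples of a group. The gene (ENSMUSG00000031778) lies on chromosome 8 from 94772009 to 94782427, on the plus strand. Its level was 2.48, 24.52 and 4.99 FPKM in proliferating Ctrl and 27.19, 34.71 and 5.76 FPKM in proliferating NAD+ samples. Under differentiation conditions it was 13.49, 12.61 and 11.89 FPKM in Ctrl and 1.95, 15.37 and 2.07 FPKM with NAD+. Only the differentiating Ctrl samples lay close together, and the groups overlapped in both conditions. The ratio of the highest to the lowest sample was 9.89 in proliferating Ctrl, 6.03 in proliferating NAD+, 7.88 in differentiating NAD+ and 1.13 in differentiating Ctrl samples. Of 12808 genes with a mean of at least 1 FPKM and no sample at 0, ratios this high were reached by 0.64%, 0.835%, 0.523% and 56.8%, respectively, and 42 genes (0.328%) had a ratio above 5 in at least 3 of the 4 groups. NAD+ and Ctrl did not differ beyond this spread, with log2 fold changes of 1.37 in proliferating cells (95% interval -0.93 to 3.67, limma adjusted p = 0.524) and -1.64 in differentiating cells (95% interval -3.45 to 0.18, limma adjusted p = 0.248). Differentiating NAD+ 2 decided the latter, since without it the log2 fold change was -2.60 (limma adjusted p = 0.00235).

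**Figure D2:**
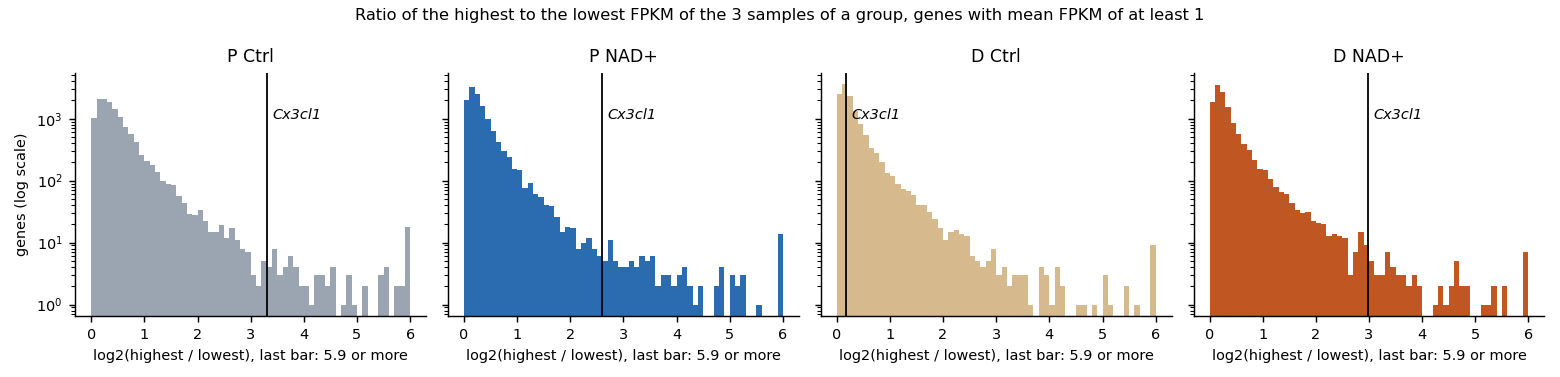
Histograms, over 12808 genes, of the log2 ratio of the highest to the lowest FPKM of the 3 samples of a group (horizontal axis) with the number of genes on a log scale (vertical axis), one panel per group. The black line marks Cx3cl1, which lies in the right tail of every group other than differentiating Ctrl, where its ratio is 1.13.

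Cxcl16, the other transmembrane ligand, whose receptor is CXCR6, was low throughout. The gene (ENSMUSG00000018920) lies on chromosome 11 from 70453983 to 70459984, on the minus strand, and shares 552 exonic bases with Zmynd15 on the opposite strand, which was at 0.20 FPKM or less. Cxcl16 was at 0.22, 0.22 and 0.36 FPKM in proliferating Ctrl and at 0.13, 0.21 and 0.19 FPKM in proliferating NAD+ samples. These groups did not overlap, but a difference of 0.09 FPKM between such low means did not pass (log2 fold change -0.40, 95% interval -1.09 to 0.30, limma adjusted p = 0.542). Under differentiation conditions it was at 0.25, 0.45 and 0.37 FPKM in Ctrl and at 0.41, 0.15 and 0.28 FPKM with NAD+, with overlapping groups (log2 fold change -0.30, limma adjusted p = 0.64).

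The remaining ligands were at or near 0. Ccl5, which attracts T cells and monocytes, was at 0.23, 0.05 and 0 FPKM in proliferating Ctrl, at 0 in the 3 proliferating NAD+ samples, at 0, 0.23 and 0 FPKM in differentiating Ctrl and at 0.06, 0.11 and 0 FPKM in differentiating NAD+ samples. Its values of 0.23 FPKM are those of proliferating Ctrl 1 and differentiating Ctrl 2, the pair of libraries that shared low values of genes at 0 elsewhere. In this pair Ccl3 was at 0.28 and 0.24 FPKM and Cxcr2 at 0.13 and 0.22 FPKM, although markers of leukocytes were divided. Cxcl12, the ligand of CXCR4 and ACKR3 that guides neural progenitors, did not exceed 0.05 FPKM in any sample. Ccl5, Cxcl12 and Ccl20 had a mean under 0.1 FPKM in both conditions, as had Cxcl1 under proliferating conditions, and these were left out of the tests across genes.

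To compare the effect of NAD+ on the ligands within each condition, 6 of the 10 could be tested in proliferating cells and 7 in differentiating cells. Under proliferating conditions 0 ligands had a limma adjusted p-value under 0.05, where 0.145% of 18597 tested genes did. The unadjusted p-value was under 0.05 for 1 ligand, Ccl2 (15.4% of all tested genes), which was also the only ligand to combine it with a ratio of the means above 2 (3.01% of all tested genes). The groups did not overlap for 1 of the 10 (1 of the 6 tested), Cxcl16, which was lower with NAD+. Of all tested genes, 8.59% were lower without overlap. Under differentiation conditions 3 of the 10 (3 of the 7 tested) passed, Cxcl10, Ccl2 and Cxcl14, all of them higher with NAD+. Of 19611 tested genes, 6.92% passed, and 2.27% passed and were higher. The NAD+ samples lay above the Ctrl samples without overlap for 5 of the 10 (5 of the 7 tested), compared with 9.68% of all tested genes. These were Cxcl10, Cxcl1, Cxcl14, Ccl2 and Ccl7. The median log2 fold change over the tested ligands was 0.49 under proliferating and 0.81 under differentiation conditions, beside medians of 0.07 and -0.08 over all tested genes. Ccl7 passed the filter under proliferating conditions only through the NAD+ samples, with means of 0.07 FPKM in Ctrl and 0.28 FPKM with NAD+. This raised the proliferating median, from which nothing is concluded. Since the ligands were chosen with such results in view, these counts describe the list.

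**Figure D3:**
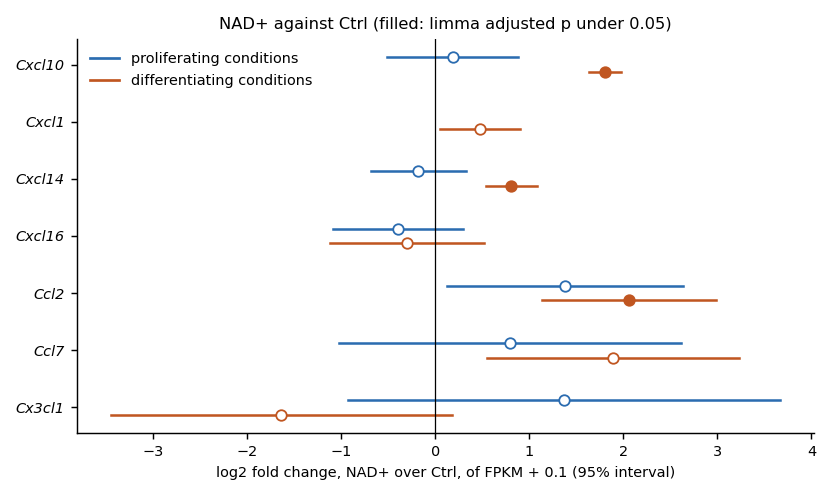
The log2 fold change of NAD+ over Ctrl on the log2(FPKM + 0.1) scale (horizontal axis) for each tested ligand under proliferating (blue) and differentiation conditions (orange); lines are 95% intervals and filled points have a limma adjusted p-value under 0.05. The filled points are Cxcl10 at 1.80, Cxcl14 at 0.81 and Ccl2 at 2.06, all under differentiation conditions, and the intervals of Cx3cl1 cross 0 in both conditions.

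The difference between the NAD+ effects of the conditions was tested as an interaction in a limma fit of all 12 samples. It passed for 1 of 7 tested ligands, Cxcl10, with 0.467% of 19498 tested genes passing. The 7 include Cxcl1, which passed the filter only through the differentiating samples. Its proliferating levels lie below the 0.1 that was added, so its interaction is not read. The effect on Cxcl10 was larger under differentiation conditions by 1.62 on the log2 scale (standard error 0.23, 95% interval 1.11 to 2.13, limma adjusted p = 0.0197), although its levels in proliferating cells lie near the 0.1 that was added. This call was lost in 8 of 21 alternatives, with adjusted p-values of 0.0554 with the replicate number as a block, 0.065 with 0.01 added and 0.0535 to 0.0641 without any 1 of proliferating NAD+ 3, differentiating Ctrl 1, Ctrl 2, Ctrl 3, NAD+ 1 or NAD+ 3. For Cxcl14 the effects differed by 0.99 (95% interval 0.44 to 1.54, limma adjusted p = 0.110), and for Ccl2 by 0.68 (95% interval -0.88 to 2.24, limma adjusted p = 0.669). The rise of Ccl2 with NAD+ under differentiation conditions is thus not shown to differ from that under proliferating conditions. For Cx3cl1 the effects differed by -3.01 (95% interval -6.01 to -0.0016, limma adjusted p = 0.322).

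Summed markers of some cell types differed between NAD+ and Ctrl, and those of others did not. The 6 neuron markers overlapped in both conditions, with 29.89 to 35.27 FPKM in differentiating Ctrl and 30.55 to 31.0 FPKM in differentiating NAD+ samples. The 6 stem/progenitor markers were lower with NAD+ in both, with 324.01 to 327.87 FPKM in differentiating Ctrl and 277.34 to 300.55 FPKM in differentiating NAD+ samples. The summed level of 8 microglia and macrophage markers was 0.97 to 1.29 FPKM in proliferating Ctrl, 3.13 to 7.04 FPKM in proliferating NAD+, 1.71 to 1.97 FPKM in differentiating Ctrl and 3.33 to 4.13 FPKM in differentiating NAD+ samples. Most of it was Cd68, a lysosomal protein, and the other 7 markers together (Aif1, Csf1r, Itgam, Ptprc, P2ry12, Tmem119 and Cx3cr1) did not exceed 0.37 FPKM in any sample, with Aif1 and Itgam at 0 in all 6 NAD+ samples. The 5 T cell markers summed to at most 0.08 FPKM. Under differentiation conditions the 6 endothelial markers summed to 0.15 to 0.25 FPKM in Ctrl and 0.25 to 0.37 FPKM with NAD+, ranges that met at 0.25 FPKM. The 6 mural cell markers summed to 0.60 to 0.93 FPKM in Ctrl and 1.16 to 1.47 FPKM with NAD+. Within the mural sum, Kcnj8 was higher with NAD+ (0.12 to 0.14 FPKM in Ctrl, 0.39 to 0.78 FPKM with NAD+) and Pdgfrb lower (0.17 to 0.26 FPKM and 0.02 to 0.1 FPKM). Under proliferating conditions the endothelial sum was 0.35 to 0.65 FPKM in Ctrl and 0.73 to 0.9 FPKM with NAD+, whereas the mural sum went the other way, from 1.4 to 1.61 FPKM in Ctrl and 0.83 to 1.07 FPKM with NAD+. Most of this endothelial sum was Flt1, at 0.23 to 0.46 FPKM in Ctrl and 0.6 to 0.75 FPKM with NAD+. The sum of the 6 astrocyte markers given above was higher with NAD+ under differentiation conditions only. There it was mostly Gfap, at 597.66, 545.96 and 642.12 FPKM in Ctrl and at 998.61, 965.04 and 967.03 FPKM in NAD+ samples. The other astrocyte markers were divided under differentiation conditions: Slc1a2 and S100b were higher with NAD+ without overlap, Aqp4 (31.75 to 38.87 FPKM in Ctrl, 27.25 to 28.8 FPKM with NAD+) and Aldh1l1 (90.97 to 96.57 FPKM in Ctrl, 57.69 to 63.27 FPKM with NAD+) were lower without overlap, and Gja1 overlapped. The sum of 6 oligodendrocyte lineage markers was 105.78 to 128.9 FPKM in differentiating Ctrl and 52.35 to 70.56 FPKM with NAD+. The part of these cell types in the ligand differences was not tested.

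To compare the conditions, differentiating samples were set against proliferating samples in the fit of all 12 samples, although the levels come from separate tables and it is not stated whether these were scaled together. Without NAD+, Cxcl10 was higher in differentiating cells, with a log2 difference of 5.33 (standard error 0.16, limma adjusted p = 2.5e-09), and Cxcl14 was lower by -1.59 (standard error 0.18, limma adjusted p = 1.8e-05). With NAD+ the log2 differences were 6.95 for Cxcl10 and -0.60 for Cxcl14 (limma adjusted p = 5.2e-10 and 0.0126). Cxcl1 passed the filter of this fit only through the differentiating samples, so its values, at most 0.04 FPKM in proliferating and 0.61 to 1.18 FPKM in differentiating samples, are given without a test. Of 19498 tested genes, 25% were higher and 31.6% lower in differentiating Ctrl samples, and 20.8% were higher and 37.6% lower in differentiating NAD+ samples, so that 1 higher and 1 lower of the other 6 ligands in the fit is no result about the list. The call of Cxcl14 with NAD+ was lost with median-ratio scaling (-0.32, limma adjusted p = 0.168), with quantile normalization (-0.36, limma adjusted p = 0.134) and without proliferating NAD+ 1 (-0.43, limma adjusted p = 0.0507), while the direction stayed.

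The make-up of the summed ligand level changed accordingly. The 10 genes summed to 8.20 to 40.04 FPKM in the 6 proliferating samples, of which Cx3cl1 made 30.2% to 86.7%. They summed to 26.83 to 28.67 FPKM in differentiating Ctrl, where Cx3cl1 made 43.7% to 47.1% and Cxcl10 40.4% to 44.8%. In differentiating NAD+ samples they summed to 50.39 to 61.83 FPKM, and Cxcl10 alone made 65.1% to 83.2%. Without Cx3cl1 the sums were 3.8 to 5.72 FPKM in proliferating, 14.22 to 15.34 FPKM in differentiating Ctrl and 46.46 to 49.83 FPKM in differentiating NAD+ samples, so that most of the spread between proliferating samples lay in Cx3cl1.

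**Figure D4:**
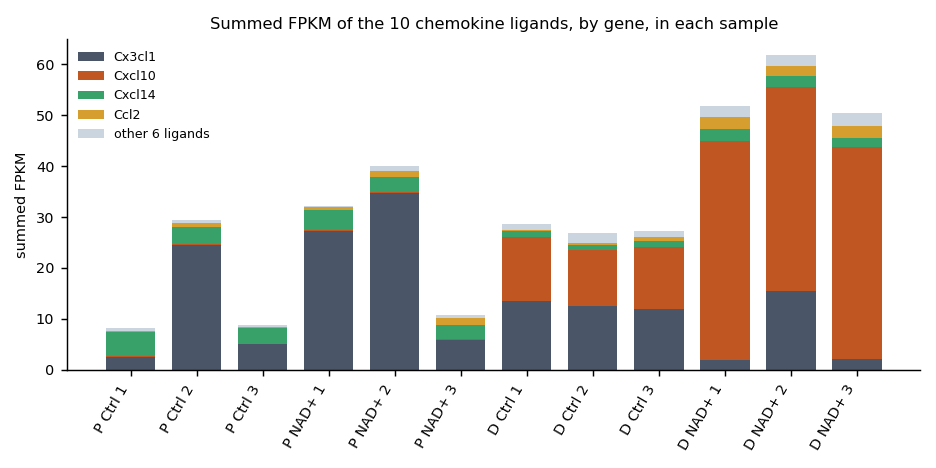
Summed FPKM of the 10 ligands (vertical axis) in each of the 12 samples, stacked by gene, where P is proliferating and D is differentiation conditions. The Cxcl10 part takes 65.1% to 83.2% of the bars of the 3 differentiating NAD+ samples, and the Cx3cl1 part takes 30.2% to 86.7% of those of the 6 proliferating samples.

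The order of the ligands by mean level differed between groups. In proliferating Ctrl it was Cx3cl1 at 10.7 ± 12.1 FPKM, Cxcl14 at 3.72 ± 0.82 FPKM and Ccl2 at 0.39 ± 0.33 FPKM, and Cx3cl1 and Cxcl14 overlapped between samples. In proliferating NAD+ samples it was Cx3cl1 at 22.6 ± 15.0 FPKM, Cxcl14 at 3.27 ± 0.72 FPKM and Ccl2 at 1.08 ± 0.43 FPKM, and these did not overlap. In differentiating Ctrl, Cx3cl1 at 12.7 ± 0.80 FPKM and Cxcl10 at 11.9 ± 0.93 FPKM overlapped as well, and both were above Cxcl14 at 1.15 ± 0.025 FPKM in every sample. In differentiating NAD+ samples Cxcl10 at 41.7 ± 1.42 FPKM stood above Cx3cl1 at 6.46 ± 7.71 FPKM, with Ccl2 at 2.22 ± 0.26 FPKM and Cxcl14 at 2.10 ± 0.17 FPKM next, and the last 3 overlapped (SD, n = 3 in each case).

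Other chemokine ligands gave few calls. Of 31 further ligand genes, 30 are in the tables, 11 of these were at 0 in all 12 samples, and 4 and 5 could be tested under proliferating and differentiation conditions. With NAD+, 0 of 4 (0 at an unadjusted p-value below 0.05) and 1 of 5 passed by limma. That gene was Ccl28, a mucosal chemokine that binds CCR10 and CCR3, which was at 4.79, 4.44 and 3.93 FPKM in differentiating Ctrl and at 2.72, 3.37 and 2.79 FPKM in differentiating NAD+ samples (log2 fold change -0.55, standard error 0.12, limma adjusted p = 0.0464, with 4.65% of all tested genes lower). It moved opposite to the 3 called ligands above, and it lost this call in 11 of 15 alternatives, with an adjusted p-value of up to 0.63. Ccl25, which draws T cells to the gut and thymus, came second in level, with differentiating means of 1.56 ± 0.11 FPKM in Ctrl and 1.55 ± 0.23 FPKM with NAD+ (SD, n = 3).

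Of 23 chemokine receptor genes, 5 were tested under proliferating and 4 under differentiation conditions, and 0 passed by limma in either. At an unadjusted p-value under 0.05 there were 2 under proliferating conditions, Cxcr4 and Ackr3, and 1 under differentiation conditions, Ackr1, beside 15.4% and 24.2% of all tested genes. Cxcr4, a receptor of CXCL12 on progenitors, was at 2.91, 1.75 and 1.99 FPKM in proliferating Ctrl and at 4.02, 3.69 and 4.01 FPKM in proliferating NAD+ samples (log2 fold change 0.82, standard error 0.20, limma adjusted p = 0.149). In differentiating cells its means were 12.2 ± 1.15 FPKM in Ctrl and 13.8 ± 1.63 FPKM with NAD+ (SD, n = 3). Ackr3, a scavenger of CXCL12, had proliferating means of 5.51 ± 1.47 FPKM in Ctrl and 3.40 ± 0.49 FPKM with NAD+ (SD, n = 3, log2 fold change -0.66, limma adjusted p = 0.221). Cxcr3, the receptor of CXCL10, was at 0 in all 12 samples, and Cx3cr1, the receptor of CX3CL1, did not exceed 0.03 FPKM.

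**Figure D5:**
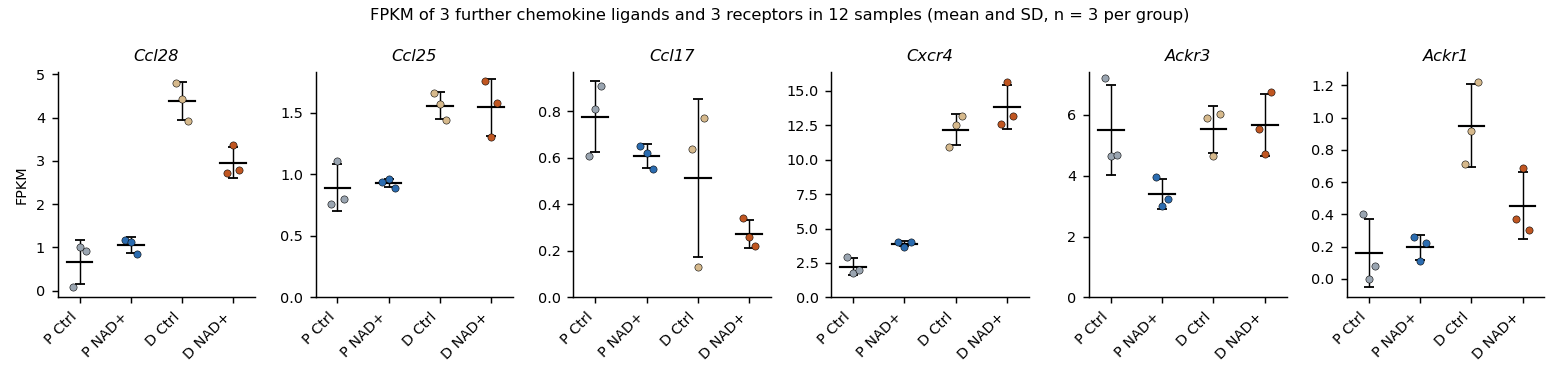
FPKM (vertical axes, one scale per gene) of the further ligands Ccl28, Ccl25 and Ccl17 and of the receptors Cxcr4, Ackr3 and Ackr1 in the 4 groups; points are samples, horizontal lines are means and bars are SD (n = 3). Ccl28 is lower in differentiating NAD+ samples (2.72 to 3.37 FPKM) than in differentiating Ctrl samples (3.93 to 4.79 FPKM), and Cxcr4 is higher under differentiation than under proliferating conditions.

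Genes upstream of chemokine transcription and proteases that release or trim chemokines were mostly not called. Of 25 inducer genes (cytokines, their receptors, NF-κB subunits and inhibitors, STAT and IRF factors), 0 of 19 tested passed in proliferating cells (5 at an unadjusted p-value below 0.05, where 15.4% of all tested genes were) and 1 of 20 in differentiating cells. Of all tested genes 0.145% passed in proliferating and 6.92% in differentiating cells, so these counts are no result about the inducers. The called gene was Ifngr2, a subunit of the interferon gamma receptor, at 4.66, 5.30 and 4.52 FPKM in differentiating Ctrl and 6.57, 7.26 and 6.57 FPKM with NAD+ (log2 fold change 0.49, limma adjusted p = 0.0280), a call that was lost in 6 of 15 alternatives. Its level was of similar size in proliferating cells, with means of 5.32 ± 0.46 FPKM in Ctrl and 7.28 ± 0.61 FPKM with NAD+ (SD, n = 3). The most abundant inducer genes were Tnfrsf1a, a TNF receptor, at 53.9 ± 3.55 and 63.7 ± 3.64 FPKM in differentiating Ctrl and NAD+ samples, and Nfkbia, an NF-κB inhibitor and target, at 31.5 ± 1.96 and 36.0 ± 2.36 FPKM (SD, n = 3). Of 7 protease genes, 0 of 5 tested passed by limma in either condition (2 in proliferating and 3 in differentiating cells at an unadjusted p-value below 0.05, which 15.4% and 24.2% of all tested genes had). Adam10 and Adam17, which shed CX3CL1 and CXCL16, had differentiating means of 31.0 ± 9.84 and 45.6 ± 1.33 FPKM and of 15.5 ± 0.57 and 17.1 ± 0.35 FPKM in Ctrl and NAD+ samples (SD, n = 3).

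For the 3 ligands with the highest group means, the genes with the most similar profile were sought by the root mean square difference of centred log2(FPKM + 0.1) values over the 12 samples, among 12927 genes with a mean of at least 1 FPKM. Nearest to Cxcl10 were Steap4 (0.44), Icosl (0.56) and Gfap (0.61), beside a root mean square of 3.14 for the profile of Cxcl10 itself. Steap4, a metalloreductase, had means of 0.07, 0.17, 6.49 and 34.1 FPKM in proliferating Ctrl, proliferating NAD+, differentiating Ctrl and differentiating NAD+ samples. Nearest to Cxcl14 were Calu (0.12), Irgm1 (0.17) and Cdh13 (0.18), where the profile of Cxcl14 itself had 0.64. The nearest genes to Cx3cl1 were Gm22935 (0.98), Dcaf17 (1.03) and Soga1 (1.04), which were far from it given a value of 1.38 for Cx3cl1 itself.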

How the data were processed

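RNA from 12 samples was sequenced by the authors with the NEBNext Ultra RNA kit. Reads were mapped to mm10 with Hisat2 (version 2.0.5), and uniquely mapped reads were counted per gene with FeatureCounts (version 2.0.1). The authors deposited FPKM values rounded to 0.01, in a table for each condition. The program that computed FPKM and the use of strand are not given in the sources used here. The tables also hold the authors' fold change, log2 fold change, p-value, q-value and call columns, which were not used. All 12 sample columns were used and 0 were left out. Genes with a mean of at least 0.1 FPKM over the samples of a fit were tested on log2(FPKM + 0.1) with limma 3.58.1 in R 4.3.3 (trend over expression, two-sided), and p-values were Benjamini-Hochberg adjusted over all tested genes at a threshold of 0.05. Each condition was fitted on its 6 samples. The interaction and the comparison of conditions used all 12. Single genes were also compared by the exact two-sided permutation test of FPKM values. P-values measure the spread between these samples, which may be technical.

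The members and the gene lists were chosen with earlier results of these data known. Outside the members, genes were named where their adjusted p-value was under 0.05 in an NAD+ comparison, where their group mean was the highest or second highest of a list, or as the 3 nearest profiles of the 3 ligands with the highest group mean. Ackr1, Cxcr3, Cx3cr1, Ccl17, Ccl3, Ccr1, Cxcr2, individual markers of cell types and the genes overlapping members were named after their values were seen. Of 55401 gene IDs, 55141 were found in GENCODE M21 (mm10), the source of gene positions. Upstream sequences are from RefSeq (GRCm38.p6). Alternatives were 1 or 0.01 added, no filter or a minimum mean of 1 FPKM, median-ratio scaling, quantile normalization, a replicate block, no variance moderation, other samples in the fit, another call rule, and leaving out each sample. The code was tested on simulated data. Sums and sequences were handled with pandas 2.3.3 and numpy 2.4.6 in Python 3.11.15, permutation tests with scipy 1.17.1 and figures with matplotlib 3.10.9.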

Additional observations from a re-analysis of the deposited data

Results flagged for a closer look

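The NAD+ effect on Cxcl10 differed between the conditions by the interaction test. It was larger under differentiation than under proliferating conditions by 1.62 on the log2(FPKM + 0.1) scale (limma adjusted p = 0.0197). The NAD+ samples were above the Ctrl samples without overlap under differentiation conditions, and the groups overlapped at 0.14 to 0.28 FPKM under proliferating conditions. Over 21 alternatives the difference lay between 1.38 and 1.79, with adjusted p-values from 7.8e-05 to 0.065, and it kept its call in 13 of them. Groups of 3 samples are too small for a test of single outlying samples, so the spread of Cx3cl1 is described by its values only.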

How the results depend on the processing

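Over 36 gene results and 663 values recomputed under the alternatives, 603 kept their direction and their side of the threshold, 38 lost the call, 14 gained it and 8 changed direction. The higher level of Cxcl10 with NAD+ under differentiation conditions passed in all 15 alternatives (log2 fold change 1.73 to 1.89, adjusted p from 0.000307 to 0.0142). The cause of the changes below was not tested. Under proliferating conditions the number of called ligands went from 0 to 1 (Ccl2) by the rule of an unadjusted p below 0.05 with a ratio above 2, and was 0 without any single sample. Under differentiation conditions it was 1 to 3 without single samples, and 1, Cxcl10, without differentiating Ctrl 1 or Ctrl 2. For the interaction it was 0 with 0.01 added, 0 with the replicate block, and 0 to 1 without single samples. With proliferating Ctrl 1 and differentiating Ctrl 2 both left out, a choice made after seeing the data, it was 1 (Cxcl10, 1.38, adjusted p = 0.0285). For differentiating against proliferating cells with NAD+ it was 5 with 1 added and 5 with the replicate block, beside 3 (Cxcl1 counted in each). Changes of direction, none of them past the threshold, were seen in the interaction of Cxcl16 (-0.15 to -0.03 in 4 of the fits without a single sample, which spanned -0.15 to 0.37), and in differentiating against proliferating Ctrl for Cxcl16 with quantile normalization (-0.044), for Ccl2 without proliferating Ctrl 3 or differentiating Ctrl 3 (fits without a single sample spanned -0.054 to 0.88), and for Ccl7 without both proliferating Ctrl 1 and differentiating Ctrl 2 (-0.047).

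Counts over all genes depended on the setting. Under proliferating conditions 27 genes passed, and 9 without the filter, 75 at a minimum of 1 FPKM, 60 with quantile normalization, 735 in the fit of all 12 samples, 0 with the replicate block, 0 without moderation, and 0 to 36 without single samples. Under differentiation conditions 1357 passed, and 758 with the block, 594 without moderation and 328 to 719 without single samples. Of the 1357, 445 were higher and 912 lower, compared with 614 and 532 under median-ratio scaling and 580 and 581 under quantile normalization. Median-ratio scaling moved the median log2 difference of all genes by 0.25 between differentiating and proliferating NAD+ samples, by 0.11 between the Ctrl samples and by 0.14 in the interaction.

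Samples with the same replicate number deviated together weakly. Their correlations across genes were 0.11, 0.02 and 0.05 under proliferating and 0.04, 0.04 and 0.03 under differentiation conditions. Samples with different numbers gave -0.11 to 0.07 under proliferating and -0.04 to -0.0025 under differentiation conditions. The main tests did not take the numbers as pairs, and the replicate block was run as an alternative. With the replicate block, Ccl2 under differentiation conditions (adjusted p = 0.0604) and the interaction of Cxcl10 (adjusted p = 0.0554) lost their calls. Under differentiation conditions every sample correlated best with its own number, whereas under proliferating conditions Ctrl 3 correlated better with NAD+ 2. Levels under about 1 FPKM rest on an unknown number of reads.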
